A study of Mus musculus with 8 samples.

Results

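The transcripts described here encode surface proteins that mark mouse haematopoietic stem cells (HSCs) or are used to sort them: Kit, Ly6a, Slamf1, Cd48, Cd34, Thy1, Procr, Esam and Tek. They were taken by symbol from a list of 10 names. Of these, Cd150 is an older name of Slamf1 and has no row of its own, so that 9 genes were found among the 20207 genes measured. All 9 were among the 12561 genes whose RPKM (reads scaled to the length of the gene model and to the mapped reads of the library) summed to more than 1 over the libraries, and these genes were tested.

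RNA sequencing was carried out on bone marrow cells sorted from CML-affected mice and from healthy littermate controls, and 8 libraries were analysed. Chronic myelogenous leukaemia (CML) was modelled in mice that carried Tal1-tTA and TRE-BCR-ABL1, in which withdrawal of doxycycline (DOX) switches on BCR-ABL1 in cells where the Tal1 element drives the tTA activator, whereas the controls carried Tal1-tTA alone. The labels name C57BL/6 as the strain of every library, while the methods of the study name an FVB/N background, and the strain remains unresolved here. LT-HSCs and LT-CML stem cells had 2 libraries each, and ST-HSCs, ST-CML stem cells, normal KLS- cells and CML-KLS- cells had 1 library each. LT (long-term) cells were gated within KLS+ as CD150+, CD48- and CD135-, and ST (short-term) cells as CD150-, CD48- and CD135-. KLS+ cells are cKit+, Lineage- and Sca-1+, and KLS- cells are the committed progenitors that are cKit+, Lineage- and Sca-1-. The normal libraries came from mice labelled 2 months old, except LT-HSC library 2, which was labelled 6 months old. The ages of the CML-affected mice are not in the labels. The methods of the study describe CML-affected mice and littermates with ages of weeks rather than months, which conflicts with the label of LT-HSC library 2. Replicate libraries are labelled as separate samples, but nothing says how many mice each holds, so that p-values measure the spread between these libraries only.

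A surface marker is useful when the protein is held by a stem cell and lost, or gained, as the cell commits. In mouse marrow, cKit and Sca-1 (the product of Ly6a) define the primitive compartment, and the SLAM proteins CD150 (the product of Slamf1) and CD48 divide it, since long-term HSCs carry CD150 and lack CD48. CD34, Thy1, the endothelial protein C receptor (Procr), Esam and the angiopoietin receptor Tie2 (Tek) refine that definition, and several of them are shared with endothelium. Ly6a, Thy1 and CD48 are held in the membrane by a lipid (GPI) anchor, whereas Kit and Tek are receptor tyrosine kinases.

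Slamf1 and Cd48 lie next to each other in the SLAM gene cluster and are shown first because their transcripts ran in opposite orders across the sorted populations. Procr is shown as a gene that was high in stem cells and low in KLS- cells. The sequences are the 200 bases before the start of each gene on the plus strand, from the promoter table of RefSeq on GRCm38.p6, at chr1:171681792-171681991 for Cd48, chr1:171766932-171767131 for Slamf1 and chr2:155751017-155751216 for Procr. Capitals mark matches on either strand to GGAAG (the core bound by ETS factors), GATAA (GATA factors), TGTGGT (RUNX factors) or CACCTG (an E-box), and no matches overlapped.
Cd48: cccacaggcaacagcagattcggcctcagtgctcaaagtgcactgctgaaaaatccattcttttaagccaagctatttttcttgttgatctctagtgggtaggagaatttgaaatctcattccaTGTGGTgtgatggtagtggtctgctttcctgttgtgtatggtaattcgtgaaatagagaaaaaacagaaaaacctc
Slamf1: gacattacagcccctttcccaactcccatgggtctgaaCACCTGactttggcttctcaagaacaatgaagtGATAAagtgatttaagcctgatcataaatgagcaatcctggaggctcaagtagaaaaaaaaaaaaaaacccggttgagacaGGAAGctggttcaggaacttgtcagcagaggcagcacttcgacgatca
Procr: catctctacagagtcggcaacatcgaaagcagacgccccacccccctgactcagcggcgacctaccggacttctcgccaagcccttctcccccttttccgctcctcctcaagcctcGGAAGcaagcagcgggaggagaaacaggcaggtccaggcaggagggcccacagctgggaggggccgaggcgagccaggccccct

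The Slamf1 window held 1 GATAA, 1 GGAAG and 1 CACCTG, and the Cd48 window held only 1 TGTGGT. Over all 32851 promoter windows of the same length, 56.8% held GGAAG, 18.1% GATAA, 11.2% TGTGGT and 13.9% CACCTG, so that a match to GGAAG sets no gene apart. The corresponding window of Cd34 held 1 GGAAG, and those of Kit and Tek held none of these letters. Base composition differed widely, from 41.5% G and C for Cd48 and 44.5% for Slamf1 to 66.0% for Procr and 73.0% for Kit at the upstream of its starts, against a median of 53.0% over all windows. Thy1, Esam and Ly6a have no entry in that table.

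Depth was an estimated 17.8 to 23.9 M reads per library, and the 9 genes were supported by very different numbers of reads. Kit had an estimated 9164 to 23377 reads per library and Cd34 2163 to 12838, while Thy1 had between 0 and 41. Replicates of a population differed for some members more than for most genes. The libraries of LT-HSC differed by a median of 0.22 on the log2(RPKM + 1) scale over all genes tested, but by 0.96 for Procr, 0.92 for Tek and 0.89 for Cd48. These libraries are labelled 2 and 6 months old, so that age and replicate spread cannot be told apart. Their difference is also part of the error in the test of LT-CML against LT-HSC. Markers of neutrophils and monocytes also varied among the stem cell libraries: the summed RPKM of 7 such genes was 2890 in LT-HSC library 2 and 2668 in LT-CML library 2, against 228.4 to 1537 in the remaining stem cell libraries and 10280 to 16560 in the KLS- libraries, and none of the 7 was at 0 in any library. Their part in the results that follow was not tested. Because each library pools sorted cells, fewer cells that carry a transcript and less of it per cell cannot be told apart.

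The proteins used for sorting were examined first, to set the transcript beside the gate. Kit, the receptor for stem cell factor, lies on the plus strand of chromosome 5 (chr5:75970941-76052747 in mm9, GENCODE M1, as for the coordinates of the genes described next). Its level was 163.5 and 121 RPKM in the libraries of LT-HSC, 213.3 in ST-HSC and 78.37 in normal KLS-. In CML it was 152.8 and 118.7 RPKM in LT, 153.3 in ST and 88.21 in KLS- cells. Every library was sorted for cKit protein, yet each of the 6 stem cell libraries lay above both KLS- libraries. The difference in log2(RPKM + 1) between stem cells (the mean of LT and ST) and KLS- cells was 0.92 (standard error 0.18, adjusted p = 0.00296 from limma). Without the normal KLS- library it was 0.73 and no longer passed (adjusted p = 0.0601 from limma).

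Ly6a, which encodes Sca-1, lies on the minus strand of chromosome 15 (chr15:74825308-74828064), amid closely related Ly6 genes that could share its reads, so that its level is uncertain to that extent. It was measured at 84.82 and 96.07 RPKM in LT-HSC, 152.2 in ST-HSC and 8.164 in normal KLS- cells. The CML libraries had 75.95 and 72.43 RPKM in LT, 136 in ST and 11.72 in KLS- cells. Sca-1 protein separated KLS+ from KLS- cells in the sort, so that the higher level in stem cells (10.4-fold in the means) is the gate and not a finding. The gate did not divide LT from ST cells by Sca-1, and here the 4 LT libraries (72.43 to 96.07) lay below the 2 ST libraries (136 and 152.2). This difference was -0.81 (standard error 0.17, adjusted p = 0.0336 from limma). It was lost without LT-HSC library 1, either LT-CML library, ST-HSC or ST-CML, where adjusted p was 0.077 to 0.309 from limma.

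Of the 9 further members of the Ly6 family that were listed, 6 passed the filter. Of these, 4 were lower in stem cells than in KLS- cells and none was higher, where 22.2% of all genes tested were lower and 26.5% higher. Ly6a had the opposite direction, which the gate sets. Ly6c2, a surface antigen of monocytes and neutrophils, was 2.058 to 172.3 RPKM in stem cells and 784.6 and 1039 RPKM in KLS- cells (log2 difference -5.34, standard error 1.38, adjusted p = 0.012 from limma). Ly6e was 170.6 to 260.5 RPKM in stem cells and 446.2 and 312.7 RPKM in KLS- cells (log2 difference -0.89, standard error 0.14, adjusted p = 0.000949 from limma). Between LT and ST cells none of the 6 passed.

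Slamf1, a self-binding receptor of the SLAM family, lies on the plus strand of chromosome 1 (chr1:173697258-173731315), and Cd48, a ligand of the receptor CD244, lies 61868 bases before it on the same strand (chr1:173612140-173635389). The gap between them holds 3 annotated genes, the U6 entries and Gm15431. Slamf1 was at 14.32 and 10.7 RPKM in LT-HSC, 1.108 in ST-HSC and 0.955 in normal KLS- cells. In CML it was at 35.45 and 25.36 RPKM in LT, 2.874 in ST and 2.36 in KLS- cells. CD150 protein divided LT from ST cells in the sort, so that the 10.8-fold higher mean in LT is the gate. Within LT, ST and KLS- cells alike, each CML library lay above each normal library, with ratios of mean RPKM of 2.43, 2.59 and 2.47. Such an order in all 3 populations was found for 9.41% of the genes tested and for no other of the 9 genes.

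In LT cells, the CML effect on Slamf1 was 1.21 on the log2(RPKM + 1) scale (standard error 0.25) and did not pass the threshold over all genes tested (adjusted p = 0.0652 from limma, n = 2 against 2). With a minimum mean of 1 RPKM, adjusted p was 0.0286 from limma at the same fold, and with no filter on low values it was 0.419. Slamf1 did not pass under the other alternatives of pseudocount, scaling or trend. With each library left out in turn, its log2 difference was 0.977 to 1.445. When the 3 CML stem cell libraries were pooled against the 3 normal HSC libraries, the difference was 1.10 (standard error 0.99, adjusted p = 0.732 from limma). That value depended on the libraries entered: it was 0.21 without ST-HSC, 0.48 without LT-CML library 1, 0.72 without LT-CML library 2 and 2.10 without ST-CML, and did not pass in any of these fits. With LT or ST as a term in that fit, the same difference had a standard error of 0.19 and passed (adjusted p = 0.015 from limma), in a fit that called 4.32% of all genes tested. In ST and KLS- cells, each with 1 library against 1, only the values are given.

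Cd48 ran in the opposite order. It was measured at 10.45 and 5.169 RPKM in LT-HSC, 41.79 in ST-HSC and 174.3 in normal KLS- cells. The CML libraries had 16.83 and 29.48 RPKM in LT, 45.15 in ST and 128.8 in KLS- cells. Both LT and ST cells were sorted as CD48-, yet the transcript was 41.79 and 45.15 RPKM in the ST libraries, above every LT library. The LT to ST difference was -1.67 (standard error 0.44) and did not pass (adjusted p = 0.0686 from limma), whereas it passed in the 6 stem cell libraries alone (adjusted p = 0.0499 from limma) and without LT-CML library 2 (-1.98, adjusted p = 0.0344 from limma) or either KLS- library (adjusted p = 0.0493 and 0.0496 from limma). Stem cells were lower than KLS- cells by a log2 difference of -2.60 (standard error 0.42, adjusted p = 0.00126 from limma), a direction that the CD48- gate on the stem cells favours.

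Between LT-CML and LT-HSC the log2 difference of Cd48 was 1.47 (standard error 0.35), the largest of the 9 genes, and it did not pass (adjusted p = 0.109 from limma). The lower LT-CML value of 16.83 RPKM was above the higher LT-HSC value of 10.45. In LT-CML the library with more neutrophil and monocyte transcripts (library 2) had the higher Cd48, and in LT-HSC the library with more of them (also library 2) had the lower. Different genes made up these sums. In LT-HSC library 2, S100a8 was at 1802 RPKM and Mpo at 69.87, against 588.5 and 1291 in LT-CML library 2. The 2 directions are therefore not like for like, and any link of these transcripts to Cd48 was not tested. In ST cells the CML and normal values were 45.15 and 41.79 RPKM, and in KLS- cells CML was the lower of the pair.

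**Figure D1:**
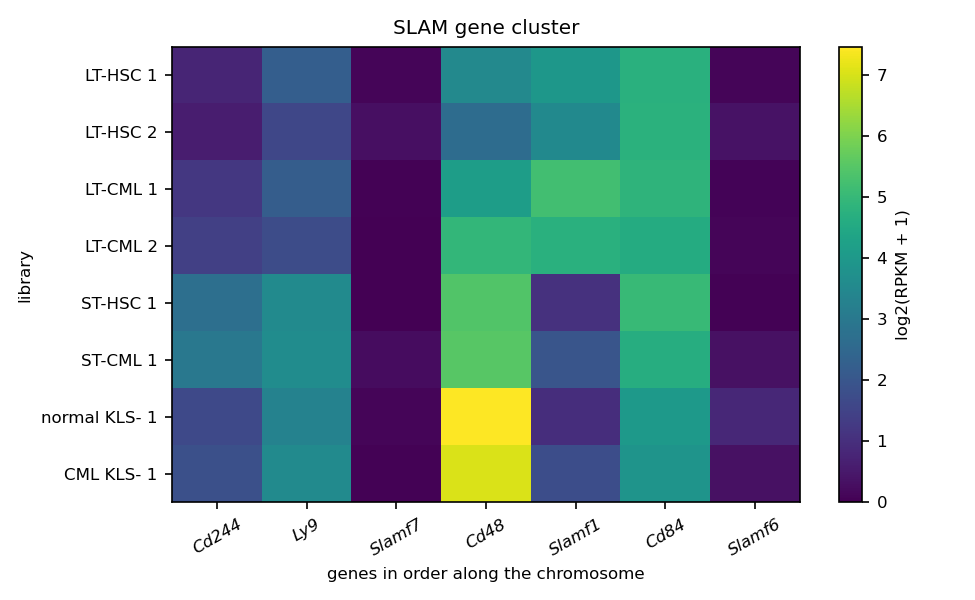
Levels of 7 genes of the SLAM cluster (columns, in order along chromosome 1) in each of the 8 libraries (rows), as log2(RPKM + 1) in colour. Slamf1 is bright only in the 4 LT libraries (10.7 to 35.45 RPKM), and its neighbour Cd48 is brightest in the KLS- libraries (174.3 and 128.8 RPKM). Cd84 spans a narrower range, with 14.97 and 13.57 RPKM in the KLS- libraries and 22.78 to 31.79 RPKM in the stem cell libraries.

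Of the 9 other SLAM family members and adaptors listed, 7 passed the filter. Cd244, the receptor for CD48, was 0.5013 to 1.681 RPKM in the LT libraries and 5.536 and 6.939 RPKM in the ST libraries, a log2 difference of -1.85 (standard error 0.16, adjusted p = 0.00109 from limma). Ly9 was likewise lower in LT, at 1.983 to 3.685 RPKM against 10.82 and 11.33 (log2 difference -1.66, standard error 0.21, adjusted p = 0.00417 from limma). The other 5 did not pass between LT and ST cells, where 4.87% of all genes tested passed. None of the 7 passed between LT-CML and LT-HSC, where 1.73% of all genes tested passed. In the SLAM cluster, as the map of its levels shows, Slamf1 and Cd48 thus differed from Cd84, which was at 13.57 to 31.79 RPKM in all 8 libraries.

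The protein of Flt3, CD135, was the remaining antigen of the gate, and both LT and ST cells were sorted as CD135-. Flt3, the receptor for FLT3 ligand and a mark of multipotent and lymphoid-primed progenitors, was at 3.948 and 2.519 RPKM in LT-HSC, 11.93 and 19.24 in LT-CML, and 61.61 and 71.6 in ST-HSC and ST-CML. All 4 values in LT cells lay far below those in ST cells (log2 difference -3.04, standard error 0.38, adjusted p = 0.00391 from limma). Flt3 was higher in LT-CML than in LT-HSC by 1.95 (standard error 0.28, adjusted p = 0.0184 from limma), a call that was lost when any LT library was left out (adjusted p = 0.0618 without LT-HSC library 1, 0.139 without LT-HSC library 2, 0.115 without LT-CML library 1 and 0.237 without LT-CML library 2, all from limma).

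**Figure D2:**
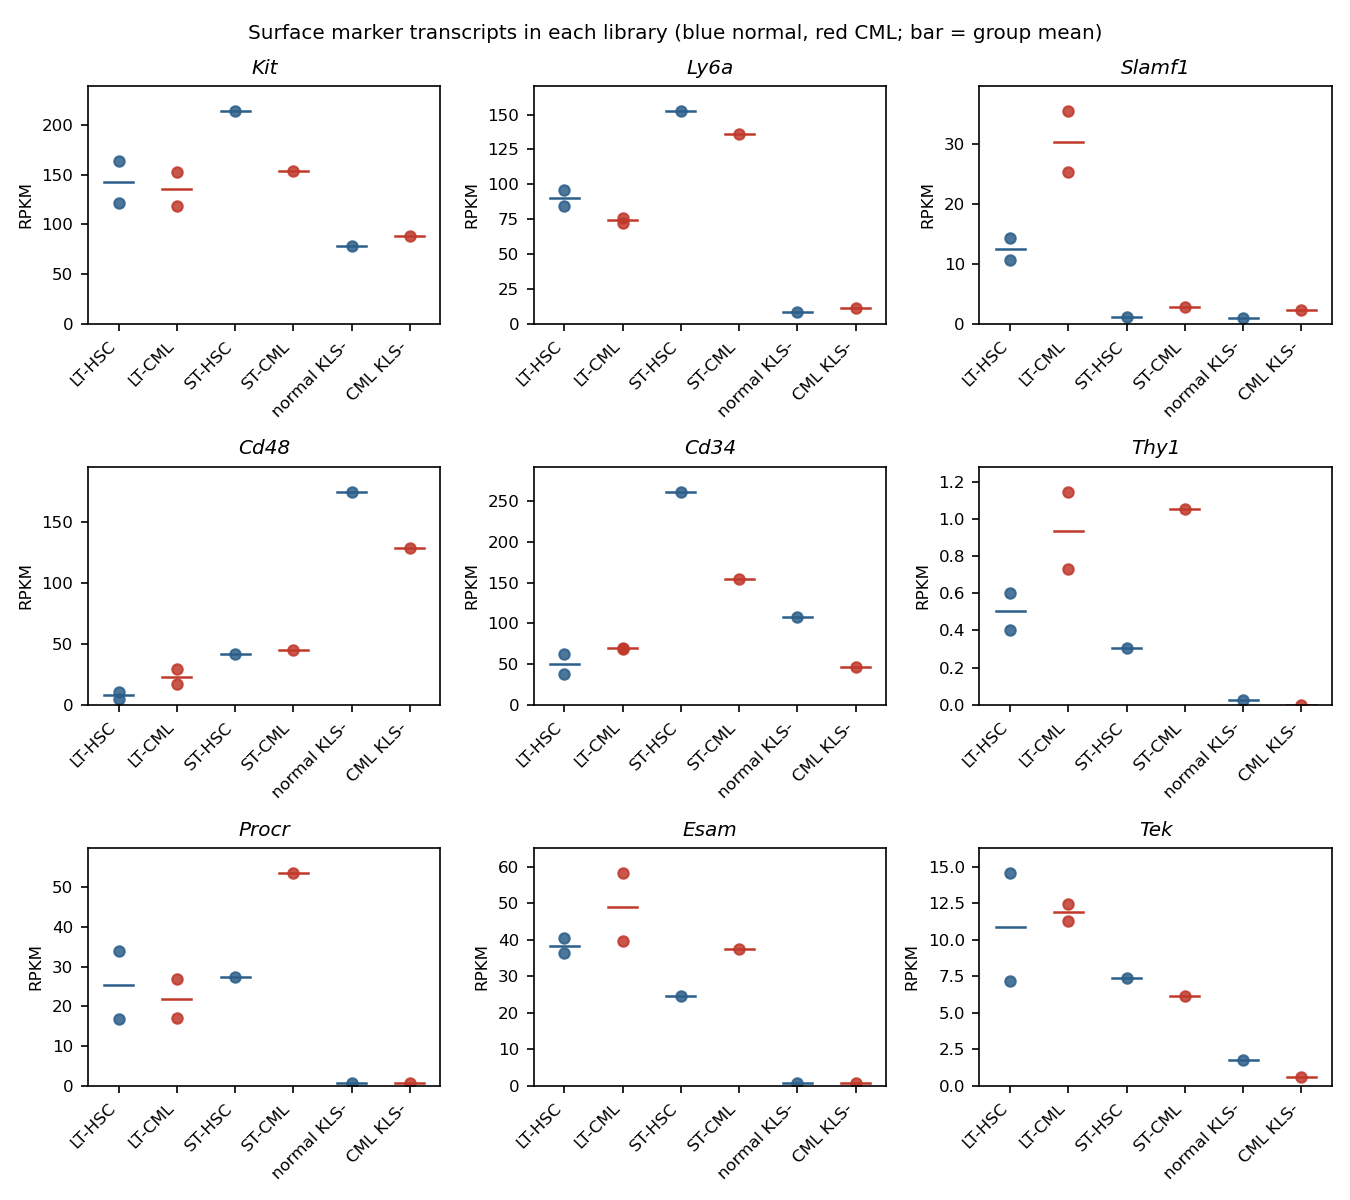
RPKM of the 9 genes in each library, with 1 panel per gene, a linear axis from 0, 1 point per library and a bar at the mean of each population (blue for normal, red for CML). Procr, Esam, Ly6a and Tek stand near the bottom of their axes in both KLS- populations, Slamf1 stands out in LT cells, and Cd34 peaks in ST-HSC at 260.6 RPKM.

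The genes whose proteins were not part of the gate were examined next. Cd34, a sialomucin of progenitor and endothelial cells, lies on the plus strand of chromosome 1 (chr1:196765015-196787486). It overlaps an antisense gene, Gm16897, whose reads cannot be told apart without strand. Cd34 was measured at 62.41 and 37.54 RPKM in LT-HSC, 260.6 in ST-HSC and 107.6 in normal KLS- cells. The CML libraries had 70.09 and 68.47 RPKM in LT, 154.7 in ST and 46.32 in KLS- cells. All 4 LT libraries lay below both ST libraries, and the LT to ST difference was -1.78 (standard error 0.36, adjusted p = 0.0278 from limma). It was lost without LT-HSC library 1, ST-HSC or ST-CML (adjusted p = 0.061, 0.305 and 0.11 from limma).

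Cd34 was the only one of the 9 genes that did not pass between stem and KLS- cells (log2 difference 0.61, standard error 0.35, adjusted p = 0.175 from limma). The KLS- values of 107.6 and 46.32 RPKM lie inside the range of the stem cell libraries, and the difference was 1.25 (adjusted p = 0.0481 from limma) without the normal KLS- library, -0.04 without the CML-KLS- library, and 0.75 (adjusted p = 0.0318 from limma) without LT-HSC library 2. CML and normal values of Cd34 were ordered differently by population. In LT cells both CML libraries lay above both normal libraries, whereas CML was lower in ST cells (154.7 against 260.6 RPKM) and in KLS- cells (46.32 against 107.6 RPKM). The difference between the CML effect in LT and that in ST was 1.26 (standard error 0.44, adjusted p = 1 from limma) and between LT and KLS- 1.71 (standard error 0.44, adjusted p = 0.704 from limma), so that neither passed. The relative of Cd34 that was measured above the filter, Podxl, was at 1.627 and 1.257 RPKM in LT-HSC and 7.413 and 4.627 in LT-CML, a log2 difference of 1.5 (standard error 0.23, adjusted p = 0.0271 from limma). Podxl was at 0.2595 RPKM in ST-HSC and 0.9362 in ST-CML. Its LT to ST difference was 1.39 (standard error 0.23, adjusted p = 0.0119 from limma), opposite in direction to that of Cd34.

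Procr, the endothelial protein C receptor, lies on the plus strand of chromosome 2 (chr2:155576853-155581207). It was at 16.91 and 33.82 RPKM in LT-HSC, 27.4 in ST-HSC and 0.6569 in normal KLS- cells, and at 26.77 and 17.03 RPKM in LT-CML, 53.41 in ST-CML and 0.7842 in CML-KLS- cells. The lowest stem cell library was 21.6-fold above the higher KLS- library, and the KLS- values rest on 27 and 28 estimated reads. The log2 difference between stem and KLS- cells was 4.15 (standard error 0.31, adjusted p = 3.41e-05 from limma). ST-CML was highest, at 1.95 times ST-HSC, but with 1 library each, and in LT cells the CML and normal ranges overlapped fully.

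Esam, an adhesion molecule of endothelial junctions, lies on the plus strand of chromosome 9 (chr9:37335663-37345904). It was measured at 36.39 and 40.41 RPKM in LT-HSC, 24.65 in ST-HSC and 0.655 in normal KLS- cells, and at 58.18 and 39.65 in LT-CML, 37.52 in ST-CML and 0.7757 in CML-KLS- cells. With the lowest stem cell library 31.8-fold above the higher KLS- library, Esam had the largest difference of the 9 genes between these compartments (4.44 in log2, standard error 0.17, adjusted p = 3.66e-06 from limma). Among related junction proteins, 3 of 5 were higher in stem cells and none was lower, where 26.5% of all genes tested were higher and 22.2% lower. F11r was at 18.81 to 32.67 RPKM in stem cells and 0.4773 and 0.9724 RPKM in KLS- cells (log2 difference 3.86, standard error 0.20, adjusted p = 9.04e-06 from limma), and Jam3 and Jam2 were the others.

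Tek, the receptor Tie2, lies on the plus strand of chromosome 4 (chr4:94405980-94541667) and was at 14.54 and 7.206 RPKM in LT-HSC, 7.385 in ST-HSC and 1.74 in normal KLS- cells. In CML it was at 12.44 and 11.31 RPKM in LT, 6.145 in ST and 0.591 in KLS- cells. Every stem cell library lay above both KLS- libraries, by at least 3.53-fold, and the log2 difference was 2.21 (standard error 0.27, adjusted p = 0.00034 from limma). LT and ST libraries overlapped, and the LT to ST difference of 0.64 did not pass (adjusted p = 0.255 from limma). Without LT-HSC library 2 that of Tek was 0.89 (adjusted p = 0.0204 from limma) and that of Procr -0.99 (adjusted p = 0.0493 from limma). The ligand of Tie2, Angpt1, was higher in stem cells too, at 81.02 to 165.4 RPKM against 20.57 and 10.48 (log2 difference 2.96, standard error 0.13, adjusted p = 7.04e-06 from limma). Angpt1 was also lower in the 3 CML stem cell libraries (109.5, 93.91 and 81.02 RPKM) than in the 3 normal HSC libraries (156.5, 162.8 and 165.4 RPKM), with a log2 difference of -0.77 (standard error 0.14, adjusted p = 0.0361 from limma), while the log2 difference of its receptor Tek was 0.05 (standard error 0.33, adjusted p = 0.973 from limma). Tie1, an orphan relative of Tek, was higher in stem cells by 2.15 (standard error 0.22, adjusted p = 0.000147 from limma).

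Thy1, a small GPI-anchored protein carried at a low level by HSCs and at a high level by T cells, lies on the plus strand of chromosome 9 (chr9:43851467-43856662). It was the lowest of the 9 genes in every library, at 0.4045 and 0.6033 RPKM in LT-HSC, 0.3067 in ST-HSC and 0.02845 in normal KLS- cells. In CML it was at 1.141 and 0.7281 RPKM in LT, 1.051 in ST and 0 in KLS- cells, where 0 reads allow up to 0.0971 RPKM (3 reads, for counting error only). The stem cell values rest on 10 to 41 estimated reads and the normal KLS- value on 1 read. The log2(RPKM + 1) difference between stem and KLS- cells was 0.72 (standard error 0.15, adjusted p = 0.00481 from limma), which the added 1 RPKM sets in part, and no fold is given. Without the CML-KLS- library it was 0.47 and did not pass (adjusted p = 0.107 from limma).

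Thy1 was the member whose 3 CML stem cell libraries (0.7281 to 1.141 RPKM) all lay above the 3 normal HSC libraries (0.3067 to 0.6033 RPKM), an arrangement, in either direction, of 18.3% of all genes tested. The log2 difference was 0.46 (standard error 0.13) and did not pass (adjusted p = 0.181 from limma). The exact two-sided permutation test gave p = 0.1 (n = 3 against 3), the smallest p that the design allows. Libraries that do not overlap fix this p in advance, so that it adds nothing to their order. The summed RPKM of 5 T cell markers was 4.639 to 7.619 in the CML stem cell libraries and 5.426 to 12.34 in the normal HSC libraries. Most of each sum was Lck, at 4.158 to 7.218 RPKM in the CML stem cell libraries and 4.502 to 11.67 in the normal HSC libraries. Cd3d was detected in all of them, at 0.2178 to 0.4542 RPKM in CML and 0.2399 to 0.602 in normal. Cd3g was at 0 in each of the CML stem cell libraries, and Cd3e and Cd5 were at most 0.1482 and 0.2314 RPKM in any library.

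Between stem and KLS- cells, 8 of 9 passed the test, 7 of them higher in stem cells and 1 (Cd48) lower, where 48.7% of all genes tested passed (26.5% higher and 22.2% lower). The directions of Ly6a and Cd48 follow the gate. That of Slamf1 comes from the LT libraries (10.7 to 35.45 RPKM), which were sorted as CD150+. Its ST values (1.108 and 2.874 RPKM) were close to the KLS- values (0.955 and 2.36 RPKM). The median log2 difference over the 9 genes was 1.57 (the value of Slamf1), or 2.21 with Thy1 set at the ratio that 3 reads in the KLS- libraries would give, against 0.08 over all genes tested. In 6 of the 9 genes (Kit, Ly6a, Thy1, Procr, Esam and Tek) each of the 6 stem cell libraries lay above both KLS- libraries, which held for 27.7% of all genes tested.

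Between LT and ST cells, 3 of 9 passed (Slamf1 higher in LT, by the gate, and Ly6a and Cd34 lower), where 4.87% of all genes tested passed. The 4 LT and the 2 ST libraries did not overlap for 4 of 9 genes (Slamf1, Ly6a, Cd34 and Cd48), as for 24.2% of all genes tested. Other listed surface markers of HSCs moved in both directions, although Flt3 among them marks LT and ST cells by its absence (CD135-). Of 15 that were listed and tested, 2 were higher in LT (Itga2b by 2.30 and Cd9 by 1.0 in log2, with standard errors of 0.28 and 0.15 and adjusted p of 0.00343 and 0.00837 from limma) and 3 were lower, among them Flt3 and Cd27 (-1.01, standard error 0.19, adjusted p = 0.0182 from limma).

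**Figure D3:**
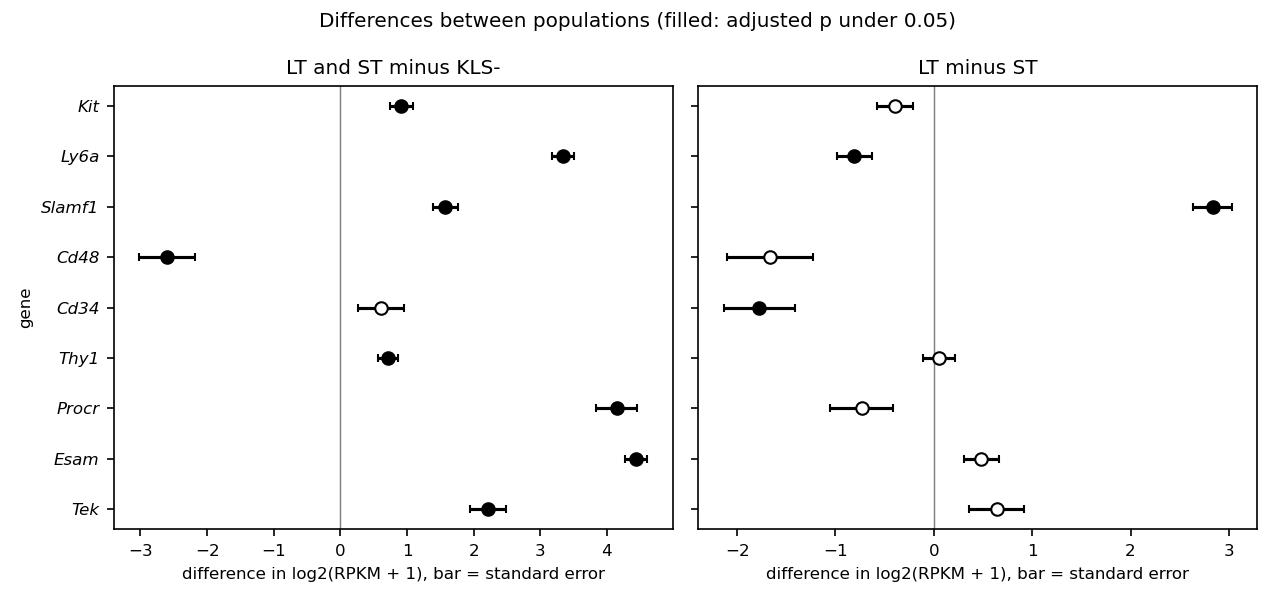
Differences in log2(RPKM + 1) between stem (LT and ST) and KLS- cells (left) and between LT and ST cells (right) for the 9 genes, from the limma fit of the 8 libraries with disease as a term; bars are standard errors and filled points have an adjusted p under 0.05. Esam and Procr lie farthest to the right on the left panel (4.44 and 4.15) and Slamf1 on the right panel (2.83), where Cd34 lies farthest to the left (-1.78).

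Of the 15 other HSC markers, 11 were higher in stem than in KLS- cells and 1 was lower, where 26.5% of all genes tested were higher and 22.2% lower. Jam3 was at 6.951 to 13.57 RPKM in stem cells and 0.3071 and 0.3492 RPKM in KLS- cells (log2 difference 3.01, standard error 0.19, adjusted p = 1.74e-05 from limma). Robo4 (2.31) and Gpr56 (2.28) were also higher, in log2 differences. Endothelial markers were examined because several of the 9 proteins are shared with endothelium. Of these, 5 of 7 tested were higher in stem cells, led by Emcn (3.31, standard error 0.21, adjusted p = 1.71e-05 from limma). Pecam1, also listed, was at 8.198 to 24.92 RPKM in stem cells and 25.25 and 16.52 RPKM in KLS- cells. Cdh5, the defining cadherin of endothelium, was at most 0.02756 RPKM in any library. Any part of endothelial cells in these levels was not tested.

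Between LT-CML and LT-HSC, none of the 9 genes passed by limma (2, Slamf1 and Cd48, had an unadjusted p under 0.05), where 1.73% of all genes tested passed, and the median log2 difference of the 9 was 0.32 against -0.01 over all genes tested. For Slamf1, Cd48, Cd34 and Thy1 both LT-CML libraries lay above both LT-HSC libraries. For Ly6a both lay below, by -0.28 in log2 (standard error 0.18, limma adjusted p = 0.652). These 5 of 9 genes without overlap stand beside 40.5% of all genes tested. For Kit the log2 difference was -0.06 (standard error 0.23, adjusted p = 0.959 from limma), in Procr -0.16 (standard error 0.35, adjusted p = 0.927 from limma), in Esam 0.32 (standard error 0.23, adjusted p = 0.696 from limma) and in Tek 0.19 (standard error 0.31, adjusted p = 0.895 from limma). When the 3 CML stem cell libraries were set against the 3 normal HSC libraries, none of the 9 passed by limma either (1, Thy1, had an unadjusted p under 0.05), where 2.34% of all genes tested passed, and with LT or ST as a term Slamf1 alone did.

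Populations with 1 library against 1 are described by their ratio only. ST-CML and ST-HSC differed by more than 2-fold for 2 of 9 genes (Slamf1 and Thy1, both higher in CML), as for 13.4% of all genes tested. The KLS- libraries differed by more than 2-fold for 4 of 9 (Slamf1 higher in CML, and Cd34, Tek and Thy1 lower), as for 14.9%, and Thy1 among them rests on 1 read at most. Cd34 was 2.32-fold and Tek 2.94-fold lower in CML-KLS- than in normal KLS- cells. Whether the CML effect in LT cells differed from that in ST or in KLS- cells was tested by interaction, with the single libraries assumed to vary like the LT replicates: none of the 9 genes passed by limma in either (at an unadjusted p under 0.05 there were 1 against ST, Cd34, and 3 against KLS- cells, Ly6a, Cd48 and Cd34), where 0.0239% of all genes tested passed in each. In 4 of 9 genes (Ly6a, Cd48, Cd34 and Thy1) the LT libraries did not overlap and CML lay on the opposite side in ST or KLS- cells, as in 15.8% of all genes tested.

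**Figure D4:**
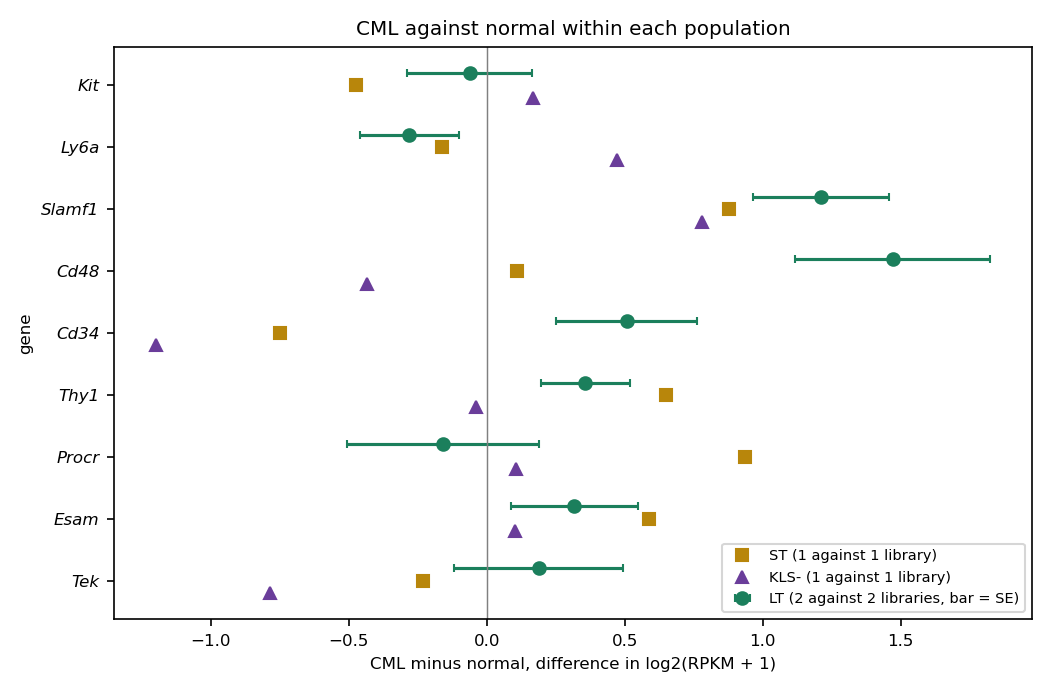
CML minus normal difference in log2(RPKM + 1) for the 9 genes in LT cells (circles, 2 against 2 libraries, bars are standard errors), ST cells (squares, 1 against 1) and KLS- cells (triangles, 1 against 1). Slamf1 is the gene with 3 large positive values (1.21, 0.88 and 0.78), while Cd34 is positive in LT (0.51) and negative in ST (-0.75) and KLS- cells (-1.20).

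The genes are ordered here by level within a population, per length of transcript, and spread is known only for LT cells. In LT-HSC, Kit was highest (mean 142.2 RPKM), followed by Ly6a (90.44), then Cd34 (49.97) and Esam (38.4), whose ranges overlapped, then Procr (25.37), then Slamf1 (12.51), Tek (10.87) and Cd48 (7.809), whose neighbours in that order overlapped, and last Thy1 (0.5039). In LT-CML the first 4 places were the same, but Slamf1 (30.41), Cd48 (23.16) and Procr (21.9), with overlapping neighbours, came before Tek (11.88). In both ST libraries Cd34 was first, ahead of Kit by 154.7 against 153.3 RPKM in ST-CML, and in both KLS- libraries Cd48 was first.

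The genes whose levels ran most like each member were found by Pearson's r of log2(RPKM + 1) over the 8 libraries, among 6344 genes with a mean of at least 5 RPKM. These r are descriptions, since the 8 points fall into the sorted populations and share them for every gene. For Slamf1 the nearest were Itga2b (r = 0.988), the integrin CD41 of megakaryocytes and platelets, and Treml1 (r = 0.98), a receptor of platelet granules. Itga2b was at 26.66 and 15.14 RPKM in LT-HSC, 51.03 and 38.38 in LT-CML, and 4.683 to 5.863 in the other libraries. For Esam they were Csgalnact1 (r = 0.999) and Jam3 (r = 0.996), for Procr Prrg2 (r = 0.997) and Insl6 (r = 0.993), for Ly6a Mcoln2 (r = 0.995) and Nceh1 (r = 0.99), and for Tek Smyd3 (r = 0.991) and Tom1l1 (r = 0.989). For Cd48 they were Dap (r = 0.986) and Eftud1 (r = 0.982), for Kit Matk (r = 0.979) and Centb1 (r = 0.971), for Thy1 Fnta (r = 0.969) and Pea15a (r = 0.964), and for Cd34 Ifnar2 (r = 0.968) and Dazap2 (r = 0.962).

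Of 6 megakaryocyte and platelet markers tested, Itga2b among them, 5 passed as higher in LT than in ST cells, where 4.87% of all genes tested passed in either direction, and Ppbp did not pass. Pf4, platelet factor 4, was at 202.3 to 359.2 RPKM in the LT libraries and 16.11 and 16.43 RPKM in the ST libraries (log2 difference 4.14, standard error 0.24, adjusted p = 0.000214 from limma). Between LT-CML and LT-HSC, 1 of the 6 passed, where 1.73% of all genes tested passed. That gene, Ppbp, was lower in LT-CML, at 1.163 and 1.78 RPKM against 4.038 and 4.729 (log2 difference -1.13, standard error 0.20, adjusted p = 0.0415 from limma).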

How the data were processed

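Bone marrow populations were sorted by flow cytometry, and oligo-dT-primed libraries for very small RNA amounts were sequenced as paired reads of 100 bases. The authors mapped reads to mm9 with a commercial service and deposited RPKM per gene. The gene annotation, the counting rule and the use of strand are not given in the sources used here. Depth was estimated from the steps between low values, scaled by GENCODE M1 exon lengths. Of 4111 low genes, 83.0% lay near whole multiples of a step. The tolerance was 0.02 steps times the square root of the multiple. The step was the smallest value of the gene or a whole fraction of it.

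The 12561 genes with a summed RPKM above 1 were tested on the log2(RPKM + 1) scale in R 4.3.3 with limma 3.58.1 (lmFit and trended eBayes); p-values were adjusted over these genes by Benjamini-Hochberg and called under 0.05. Fold changes on this scale understate changes of low genes. LT-CML was compared with LT-HSC in a fit with 1 mean per population, pooled CML stem with normal HSC libraries without further terms, and LT, ST and KLS- cells with disease as a term. Tables and permutation tests used Python 3.11.15. Main fits other than the interactions were tested on simulated data in which 200 genes were changed by 2 on the log2 scale. Of these, 97.5% to 100% were recovered. Unchanged genes made up 1.96% (LT against ST) to 6.54% (stem against KLS-) of the calls. The simulated spread was modelled on the LT replicates for every population.

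Named genes were all members, Flt3, at most 4 called genes per list and comparison, and the 2 genes most like each member; 1 gene that met this rule is not reported here. Members and lists were chosen with earlier results of these data known. Alternatives covered the pseudocount, filters, scaling, the trend, covariates and leaving out each library.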

Additional observations from a re-analysis of the deposited data

Results flagged for a closer look

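For 4 of the genes, every CML library moved one way from every normal library in LT cells and the opposite way in another population, as did 15.8% of all genes tested. The populations other than LT had 1 library of each kind, and the interaction test, which assumes that such libraries vary like the LT replicates, did not pass for any of them. For Cd34 the CML effect in LT exceeded that in ST by 1.256 on the log2 scale (adjusted p = 1 from limma) and that in KLS- cells by 1.706 (adjusted p = 0.704 from limma). For Cd48 the CML effect in LT exceeded that in KLS- cells by 1.905 (adjusted p = 0.959 from limma). For Thy1 the corresponding value was 0.399 (adjusted p = 1 from limma), and it rests on 1 read or none in the KLS- libraries. For Ly6a the CML effect in LT was below that in KLS- cells, with a difference of -0.753 (adjusted p = 1 from limma).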

How the results depend on the processing

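Of 394 values of the 9 genes and Flt3 under the alternatives other than leaving out a library, 380 kept their direction and side of the threshold. The reversed values were those of Kit between LT-CML and LT-HSC with quantile normalization (0.013), Cd34 (-0.233) and Tek (-0.16) between CML stem and normal HSC libraries when all 8 libraries entered with cell type as a term, Thy1 between LT and ST with quantile normalization (-0.004), and Slamf1 in the LT against ST interaction with a pseudocount of 0.1 (-0.03). None of these passed in either fit.

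Genes called between LT-CML and LT-HSC numbered 217, and 0 with no filter on low values by limma (1881 at an unadjusted p under 0.05). For CML stem against normal HSC, 294 became 173 with no filter, 543 with LT or ST as a term and 776 with all 8 libraries. For LT against ST, 612 became 127 with no filter, where Ly6a (adjusted p = 0.159), Cd34 (0.192) and Flt3 (0.09) no longer passed by limma. The LT against ST interaction called 3 genes, and 0 with a pseudocount of 0.1, 407 with no filter, 5 with a mean of at least 1 RPKM and 1 without the trend. The LT against KLS- interaction called 3, and 0 with a pseudocount of 0.1, quantile or upper-quartile scaling or no trend, 59 with no filter and 1 with a mean of at least 1 RPKM. Cd34 passed between stem and KLS- cells with quantile normalization (1.02, adjusted p = 0.0339 from limma). Upper-quartile scaling moved the median of all genes in the LT against ST interaction from 0.071 to -0.056. The causes were not tested.

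Leaving out each library gave 6 to 225 genes for LT-CML against LT-HSC, 115 to 217 for CML stem against normal HSC, 3178 to 6338 for stem against KLS-, 110 to 718 for LT against ST, and 0 to 3 for each interaction. Of 420 values of the genes, 374 kept direction and side. The log2 differences that changed sign in some of these fits ranged as follows. Between LT-CML and LT-HSC, Kit ranged from -0.278 to 0.153, Procr from -0.638 to 0.321 and Tek from -0.273 to 0.648. Between CML stem and normal HSC libraries, Ly6a ranged from -0.529 to 0.009, Cd34 from -0.491 to 0.89, Procr from -0.22 to 0.577 and Tek from -0.125 to 0.35. Between stem and KLS- cells Cd34 ranged from -0.038 to 1.249, and between LT and ST cells Thy1 ranged from -0.159 to 0.266. In the LT against ST interaction Esam ranged from -0.54 to 0.002 and Tek from -0.042 to 0.879, and in the LT against KLS- interaction Procr ranged from -0.745 to 0.214 and Esam from -0.055 to 0.487. No paired analysis was possible because the normal libraries carry ages and no replicate numbers.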
